A study of Mus musculus with 19 samples.

Results

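The 9 genes described here, Cs, Idh3a, Idh2, Ogdh, Dlst, Suclg1, Sucla2, Fh1 and Mdh2, encode enzymes of the tricarboxylic acid (TCA) cycle, and were taken by name from the 55487 genes of a mouse RNA sequencing data set. RNA was measured in small intestinal crypts, the epithelial pockets that hold the stem and dividing cells of the gut lining. The mice were C57BL/6 animals that carried (Nt+/+) or lacked (Nt-/-) the gene for neurotensin, a gut peptide hormone released after a meal, and were either fed ad libitum or given only water for 48 hours. The study describes its fed and fasted mice as carrying an Lgr5-EGFP reporter, which labels intestinal stem cells. Ad libitum feeding was given to 5 Nt+/+ mice and to 4 Nt-/- mice, and 5 mice of each genotype were fasted, with 1 library per mouse. Each group held females and males. The study asked how neurotensin shapes the response of crypts to nutrient stress, and the comparisons below give the fasting effect in each genotype, the genotype effect in each nutrient state and the difference between the fasting effects.

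The TCA cycle takes up acetyl groups in the mitochondrial matrix, oxidizes them to carbon dioxide and passes the electrons to the respiratory chain, while its intermediates also feed the synthesis of lipids, nucleotides and amino acids. Acetyl units arrive from pyruvate through the pyruvate dehydrogenase complex or from fatty acids through β-oxidation, and amino acids such as glutamine enter further along the cycle. In the fasted state many tissues turn from glucose to fatty acids, and the pyruvate dehydrogenase kinases close the entry from pyruvate.

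Total counts were 9059418 to 35068669 per mouse (median, 18541770), and each of the 9 transcripts was covered by at least 591 counts in every mouse. Nts, the neurotensin gene, was at 4.98 to 8.59 CPM (counts scaled to the size of the library) in the 10 Nt+/+ mice and at 0.144 to 0.793 CPM in the 9 Nt-/- mice. One fasted mouse is titled Nt+/+ but carries the genotype label of the knockout. It was kept with its title. Its Nts level was 5.43 CPM, within the 4.98 to 5.71 CPM of the other fasted Nt+/+ mice and above every Nt-/- mouse. The 8 epithelial markers (Epcam, Cdh1, Krt8 and others), which do not tell crypt from villus, summed to 5800 to 7950 CPM over all mice. None of them passed the test for fasting in either genotype. The 10 markers of stroma, muscle and endothelium summed to 2.69 to 11.7 CPM, none of the 7 with enough counts passed, and Pdgfra and Cdh5 averaged under 3 counts per mouse.

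Per unit of transcript length, the order of the enzymes was similar in the 4 groups. In Nt+/+ mice fed ad libitum, Mdh2, the malate dehydrogenase that closes the cycle, was highest at 442 ± 44.3 TPM (mean ± SD, n = 5), a unit that corrects for transcript length. Cs, the citrate synthase that joins acetyl-CoA to oxaloacetate, followed at 221 ± 14.0 TPM, and Ogdh, the decarboxylating subunit of the α-ketoglutarate dehydrogenase complex, at 186 ± 22.3 TPM. The ranges of Cs and Ogdh overlapped, whereas those of Mdh2 and Cs did not. Suclg1 (133 ± 10.1 TPM) and Dlst (130 ± 14.2 TPM) overlapped and lay above Idh3a (93.9 ± 4.45 TPM). Idh3a, Fh1 (90.5 ± 12.4 TPM) and Sucla2 (74.0 ± 9.75 TPM) overlapped from one to the next, and Idh2 was lowest at 55.9 ± 1.87 TPM.

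The order changed little with fasting or genotype. In fasted Nt-/- mice Sucla2 reached 93.0 ± 10.8 TPM (n = 5) and stood above Idh3a (88.2 ± 9.46 TPM) and Fh1 (77.8 ± 7.76 TPM), although its range overlapped with those of both. Mdh2 stayed highest and Idh2 lowest in all 4 groups by the group means. The partners of these enzymes were of a like order of magnitude in Nt+/+ mice fed ad libitum, with the 4 succinate dehydrogenase subunits between 163 and 209 TPM. The exception was Ogdhl, a second gene for the decarboxylating subunit, at 1.04 ± 0.427 TPM. Csl, a near copy of citrate synthase, held at most 1 count in any mouse.

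**Figure D1:**
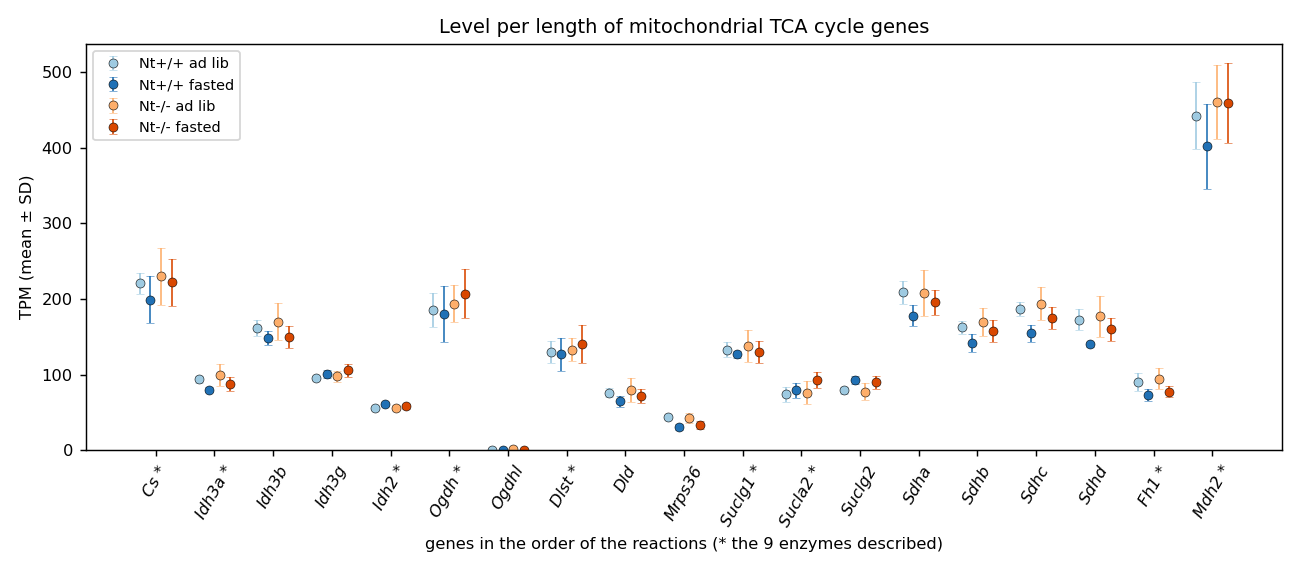
Mean TPM (± SD, y axis) of mitochondrial TCA cycle genes in the order of the reactions (x axis) in the 4 groups of 4 or 5 mice, with an asterisk on the 9 enzymes described. Mdh2 stands highest, at 402 to 460 TPM, and Ogdhl lies near 1 TPM in every group.

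Most of the 9 transcripts did not pass the test for fasting in either genotype. In Nt+/+ crypts 1 of the 9 genes passed the test, Fh1, which fell. Of all 17875 genes tested, 21.6% passed in either direction, 11.2% higher and 10.4% lower. In Nt-/- crypts 2 of the 9 passed, with Sucla2 higher and Fh1 lower, beside 25.2% of all genes, 12.5% higher and 12.6% lower. In Nt-/- crypts that split of 2242 higher and 2257 lower genes became 1716 and 3057 with library size alone as the scaling. Whether the counts among the 9 differ from the shares of all genes was not tested. The median log2 fold change of the 9 genes was -0.04 in Nt+/+ and -0.01 in Nt-/- crypts, and that of all genes tested was -0.01 and -0.02. Without regard to sign, the median log2 change of the 9 was 0.0989 in Nt+/+ and 0.0693 in Nt-/- crypts, against 0.178 and 0.203 for the 2547 genes at or above the level of the lowest of the 9, of which 31.6% and 38.5% passed. The 95% intervals of the 9 fasting effects ran from -0.42 to 0.37 in Nt+/+ and from -0.43 to 0.45 in Nt-/- crypts. These are bulk samples, in which fewer cells of a type and less RNA per cell cannot be told apart.

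**Figure D2:**
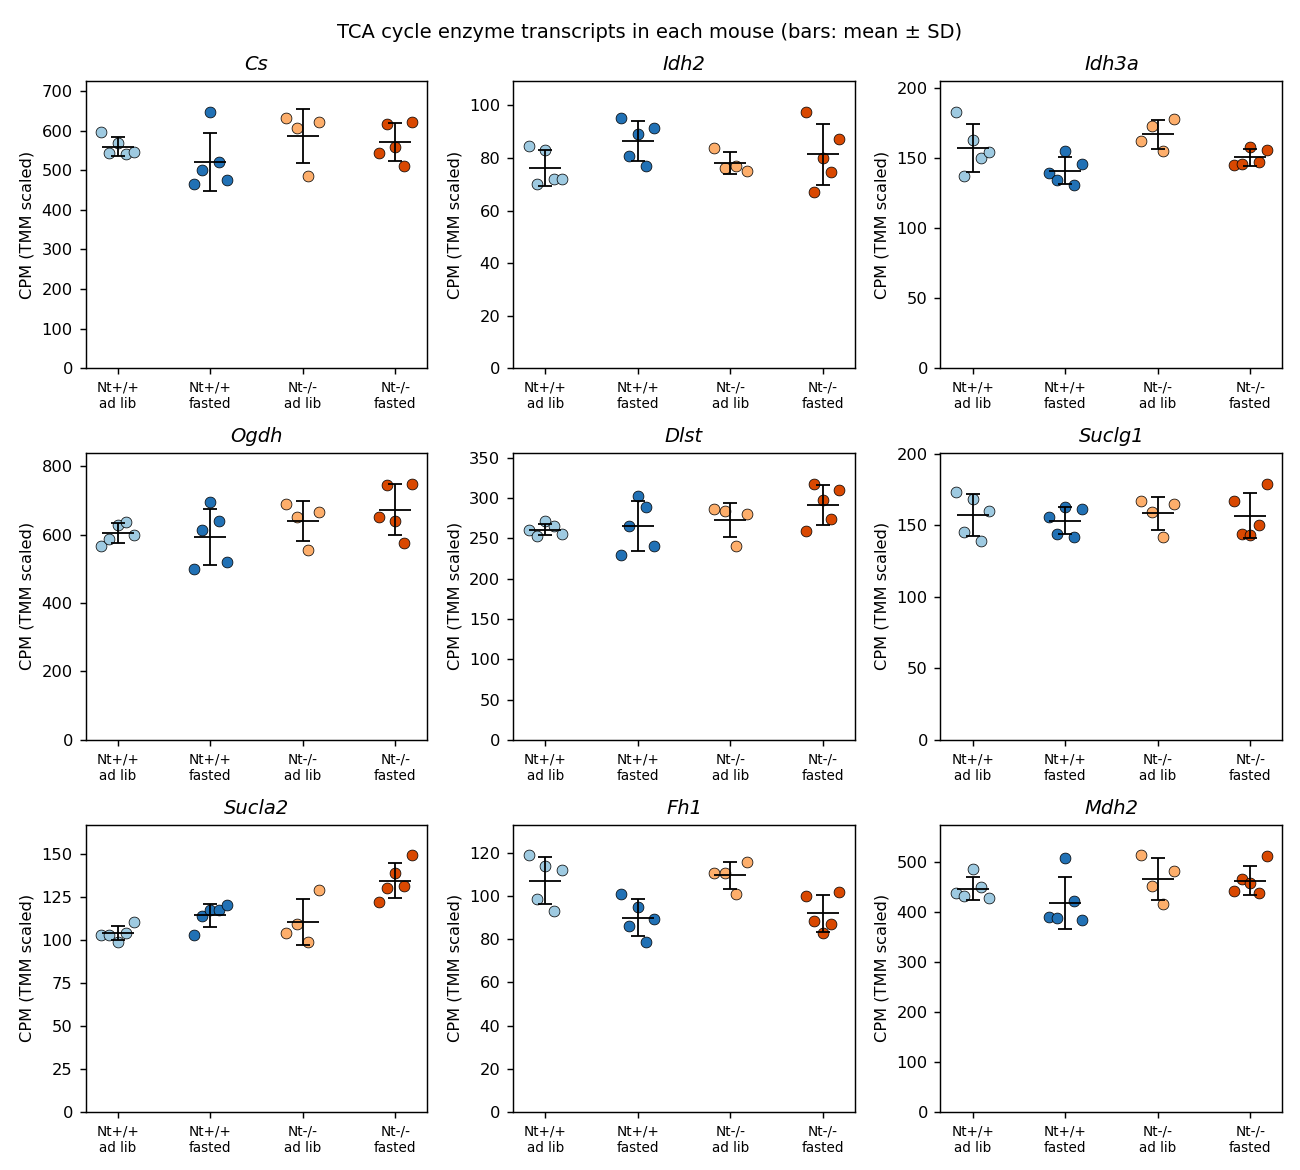
Level of each enzyme (TMM-scaled CPM, y axis from 0) in every mouse of the 4 groups (x axis), with the mean ± SD as bars. The fasted points of Fh1 lie low in both genotypes (78.8 to 102 CPM), and those of Sucla2 lie high in fasted Nt-/- mice (122 to 149 CPM).

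The first steps of the cycle make citrate and carry it to α-ketoglutarate. Cs was at 559 ± 24.0 CPM in fed and 522 ± 73.4 CPM in fasted Nt+/+ mice (n = 5 each) and at 587 ± 68.2 CPM (n = 4) and 571 ± 48.0 CPM (n = 5) in Nt-/- mice. Its log2 fold change with fasting was -0.10 (95% interval, -0.30 to 0.10) in Nt+/+ and -0.04 (-0.25 to 0.17) in Nt-/- crypts, so a change of more than 0.30 in either direction lay outside both intervals.

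Idh3a encodes the catalytic subunit of the NAD-dependent isocitrate dehydrogenase, a regulated step of the cycle. In Nt+/+ mice fed ad libitum it was at 183, 137, 163, 150 and 154 CPM, and in fasted Nt+/+ mice at 139, 134, 155, 131 and 146 CPM. In Nt-/- mice it was at 162, 173, 155 and 178 CPM when fed and at 145, 146, 158, 147 and 156 CPM when fasted. The fasted values sat toward the low end in both genotypes, but the groups overlapped. The log2 fold change was -0.16 (adjusted p = 0.127 by edgeR's quasi-likelihood test) in Nt+/+ and -0.15 (adjusted p = 0.165) in Nt-/- crypts, and neither passed. With library size alone as the scaling, it passed in Nt-/- crypts (adjusted p = 0.0216, edgeR). Its partner subunits were Idh3b (-0.10 and -0.20) and Idh3g (0.09 and 0.11), which did not pass either.

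Idh2 encodes the NADP-dependent mitochondrial isocitrate dehydrogenase, which runs beside the NAD-dependent enzyme and supplies NADPH. It was at 84.5, 70.1, 83.0, 71.9 and 72.2 CPM in Nt+/+ mice fed ad libitum and at 95.2, 80.6, 89.0, 77.0 and 91.4 CPM in fasted Nt+/+ mice. In Nt-/- mice it was at 84.0, 76.1, 77.1 and 75.0 CPM when fed and at 97.6, 67.1, 79.9, 74.8 and 87.4 CPM when fasted. In Nt+/+ mice the fasted values were mostly higher with some overlap, whereas in Nt-/- mice the fasted values spanned the fed ones. The log2 fold change was 0.18 in Nt+/+ crypts and did not pass without a replicate block (adjusted p = 0.155, edgeR), but mice that share a number deviated together. In a fit with a replicate block taken from the titles it passed (adjusted p = 0.0345, edgeR), as it did when the block came from the file names (adjusted p = 0.0316, edgeR). With these blocks 5006 and 5484 of the 17875 genes passed, in place of 3862. Idh2 passed under 2 of 12 alternatives, which were these blocks, and in 0 of 19 fits that left out 1 mouse. In Nt-/- crypts its log2 fold change was 0.06 (adjusted p = 0.692, and 0.671 with the block, edgeR).

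The ratio of Idh2 to Idh3a transcripts, which does not depend on how the libraries are scaled, rose from 0.596 ± 0.0304 in fed to 0.770 ± 0.0390 in fasted Nt+/+ mice (n = 5 each). The ratios of the single mice were 0.559 to 0.631 when fed and 0.732 to 0.835 when fasted, with no overlap (exact permutation test, two-sided p = 0.00794, the smallest this design allows; adjusted p = 0.0291 over 22 ratio tests). In Nt-/- mice the ratio was 0.574 ± 0.0518 when fed and 0.668 ± 0.101 when fasted, and the groups overlapped (adjusted p = 0.262, exact permutation test). The difference between the genotypes in this ratio was not tested. The ratios were chosen after values were seen, so their p-values describe the separation of the mice and are not independent tests. The ratio of Idh3g to Idh3a, 2 subunits of the same enzyme, rose from 1.02 ± 0.0618 to 1.25 ± 0.0668 in Nt+/+ mice (adjusted p = 0.0291, exact permutation test), and in Nt-/- mice, where it was 0.995 ± 0.0820 and 1.21 ± 0.0985, it missed the threshold (adjusted p = 0.0582).

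Ogdh and Dlst encode the first and second subunits of the α-ketoglutarate dehydrogenase complex, which releases the second carbon dioxide of the cycle and makes succinyl-CoA. Ogdh was at 604 ± 29.0 and 593 ± 81.7 CPM in fed and fasted Nt+/+ mice and at 641 ± 58.8 and 672 ± 74.6 CPM in Nt-/- mice. Dlst was at 261 ± 7.53 and 265 ± 30.8 CPM in Nt+/+ mice and at 273 ± 21.5 and 292 ± 25.1 CPM in Nt-/- mice. Neither passed with fasting, with log2 fold changes of -0.03 and 0.07 for Ogdh and of 0.02 and 0.10 for Dlst. The ratio of Ogdh to Dlst stayed between 1.33 and 1.62 in all 19 mice. Of the other subunits, Mrps36, a small protein that holds the complex together and was first named as a ribosomal protein, fell in Nt+/+ (log2 fold change, -0.48; adjusted p = 0.00169) and in Nt-/- crypts (-0.32; adjusted p = 0.0291, edgeR), whereas the shared dihydrolipoamide dehydrogenase Dld did not pass (-0.21 and -0.15).

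Succinyl-CoA ligase turns succinyl-CoA into succinate and makes ATP or GTP. It pairs the shared subunit Suclg1 with either Sucla2, which sets the specificity for ADP, or Suclg2, which sets that for GDP. Sucla2 (ENSMUSG00000022110) spans chr14:73525319-73596142 on the plus strand of GRCm38. It was at 104, 109, 98.4 and 129 CPM in Nt-/- mice fed ad libitum and at 122, 130, 139, 131 and 149 CPM in fasted Nt-/- mice. In Nt+/+ mice it was at 103, 103, 98.8, 104 and 110 CPM when fed and at 103, 114, 117, 117 and 120 CPM when fasted. In the Nt-/- groups 1 fed mouse, at 129 CPM, lay within the fasted range, and in Nt+/+ mice 1 fasted mouse lay at the fed level. Sucla2 rose with fasting in Nt-/- crypts by 1.22-fold (log2 fold change, 0.29; SE, 0.08; adjusted p = 0.0103, edgeR), and in Nt+/+ crypts its log2 fold change was 0.14 (SE, 0.07) and did not pass (adjusted p = 0.184). With library size alone as the scaling, the Nt-/- value was 0.22 and no longer passed (adjusted p = 0.0738).

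Suclg1 did not pass, at 157 ± 14.6 and 153 ± 9.85 CPM in fed and fasted Nt+/+ mice and 159 ± 11.6 and 156 ± 15.8 CPM for Nt-/- (log2 differences with fasting, -0.04 and -0.02), and Suclg2 was 0.15 and 0.22 without passing. As a ratio, however, the sum of Sucla2 and Suclg2 over Suclg1 was 1.08 to 1.25 in fed and 1.28 to 1.46 in fasted Nt+/+ mice, and 1.05 to 1.18 in fed and 1.31 to 1.60 in fasted Nt-/- mice. The fed and fasted mice did not overlap in either genotype (exact permutation test, p = 0.00794 in each, the smallest these designs allow; adjusted p = 0.0291). As this ratio was chosen after values were seen, its p-values describe the separation of the mice and are not independent tests. The split between both nucleotide-specific subunits did not pass, with a Sucla2 to Suclg2 ratio of 0.928 ± 0.0845 and 0.851 ± 0.107 in fed and fasted Nt+/+ mice and of 0.978 ± 0.0680 and 1.04 ± 0.127 in Nt-/- mice.

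Fh1, the mouse fumarase that hydrates fumarate to malate, was the 1 enzyme of the 9 that passed in both genotypes. The gene (ENSMUSG00000026526) spans chr1:175600374-175625635 on the minus strand of GRCm38. It was at 119, 98.7, 114, 93.0 and 112 CPM in Nt+/+ mice fed ad libitum and at 101, 86.0, 95.2, 78.8 and 89.5 CPM in fasted Nt+/+ mice. In Nt-/- mice it was at 111, 111, 101 and 116 CPM when fed and at 100, 88.6, 82.8, 87.0 and 102 CPM when fasted. The fasted values were lower on the whole, with overlap between the lowest fed and the highest fasted mice in both genotypes. The level fell to 0.840-fold in Nt+/+ (log2 fold change, -0.25; SE, 0.08; adjusted p = 0.0361) and to 0.842-fold in Nt-/- crypts (-0.25; SE, 0.09; adjusted p = 0.0452, edgeR). Fh1 was lower in the fasted mouse of each of the 5 Nt+/+ pairs and each of the 4 Nt-/- pairs formed by the file-name numbers, and with these as a replicate block the adjusted p was 0.00445 and 0.00624 (edgeR). Without the block both calls lie close to the threshold. In Nt+/+ crypts the adjusted p rose to 0.0519 to 0.0712 when the mouse with disagreeing labels was moved to Nt-/-, when only the compared groups were fitted or when low counts were not filtered, and to 0.0569 to 0.106 when fed mouse 1, 3 or 5 or fasted mouse 2, 4 or 5 was left out. In Nt-/- crypts it rose to 0.0681 to 0.0769 when only the compared groups were fitted, when low counts were not filtered, with the size factors of DESeq2 or with DESeq2 itself. It also rose to 0.0517 to 0.116 without fed Nt-/- mouse 1, 2 or 4, fasted Nt-/- mouse 2, 3 or 4, fed Nt+/+ mouse 5 or fasted Nt+/+ mouse 2 or 5.

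Mdh2 was at 446 ± 23.0 and 418 ± 52.3 CPM in fed and fasted Nt+/+ mice and at 466 ± 41.5 and 462 ± 29.5 CPM for Nt-/-, and its log2 differences were -0.09 and -0.01. Of the succinate dehydrogenase subunits, which carry out the step before Fh1 and belong to the respiratory chain as well, Sdhd fell in Nt+/+ crypts (log2 fold change, -0.24; adjusted p = 0.0182, edgeR) and was -0.13 without passing in Nt-/- crypts. Sdha, Sdhb and Sdhc were -0.16, -0.14 and -0.17 in Nt+/+ and -0.08, -0.09 and -0.13 in Nt-/- crypts and did not pass. Of the 4 succinate dehydrogenase assembly factors, Sdhaf2, which helps to attach the flavin cofactor, fell in Nt+/+ (-0.30) and in Nt-/- crypts (-0.23).

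**Figure D3:**
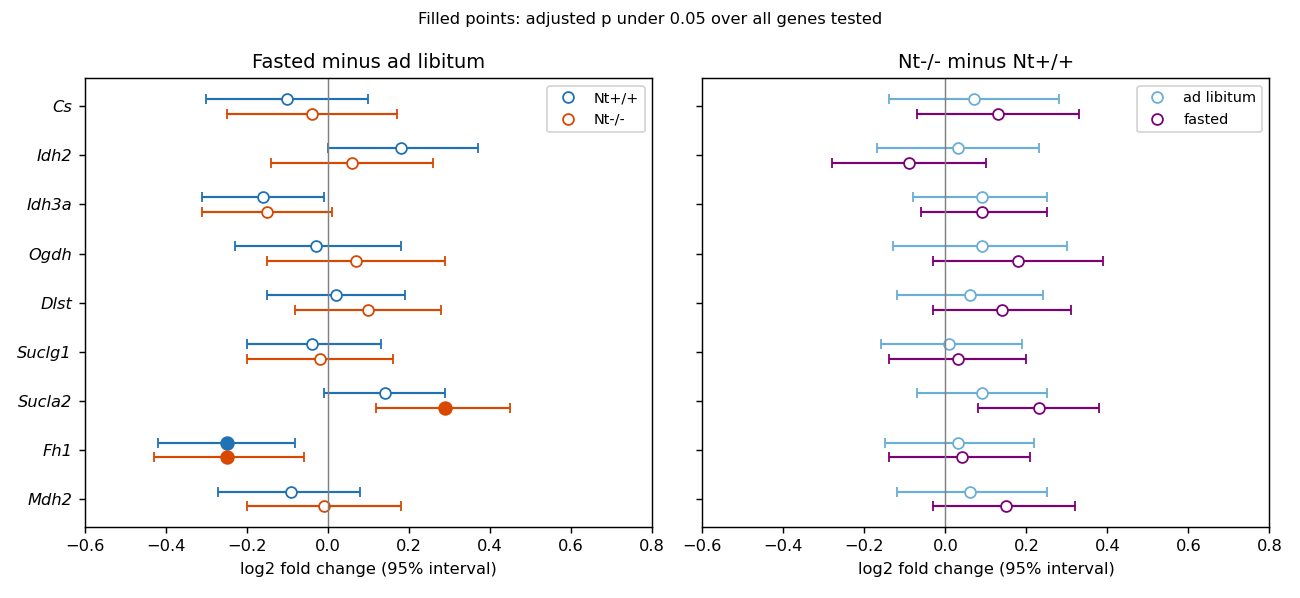
log2 fold change (x axis, points) with its 95% interval (bars) of each enzyme (y axis) for fasting in each genotype (left) and for genotype in each nutrient state (right); filled points passed at an adjusted p under 0.05 over all genes tested. Fh1 is filled in both genotypes at -0.25, Sucla2 only for Nt-/- mice at 0.29, and no point on the right is filled.

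The bases upstream of the start are shown for Fh1, which passed in both genotypes, and for Cs, Ogdh and Dlst, which varied together between mice as given further on. They were chosen after these values were seen. RefSeq promoters on GRCm38.p6 matched 8 of the 9 genes. Each line holds the 150 bases before the start, read 5′ to 3′ on the strand of the gene. Capitals mark the letters CCAAT or the reverse ATTGG, the box bound by NF-Y. The Fh1 bases lie at chr1:175625636-175625785 on the minus strand. Those of Cs lie at chr10:128337577-128337726, those of Ogdh, at the first of its 6 RefSeq starts, at chr11:6291447-6291596 and those of Dlst at chr12:85110683-85110832, all on the plus strand.
Fh1: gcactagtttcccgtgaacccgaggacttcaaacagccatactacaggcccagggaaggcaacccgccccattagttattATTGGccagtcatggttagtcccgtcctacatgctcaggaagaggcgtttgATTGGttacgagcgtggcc
Cs: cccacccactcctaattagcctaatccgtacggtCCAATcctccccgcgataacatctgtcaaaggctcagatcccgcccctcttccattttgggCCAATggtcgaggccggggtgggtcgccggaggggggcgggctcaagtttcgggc
Ogdh: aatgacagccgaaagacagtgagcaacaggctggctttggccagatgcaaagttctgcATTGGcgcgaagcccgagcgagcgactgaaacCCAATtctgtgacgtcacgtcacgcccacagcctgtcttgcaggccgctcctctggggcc
Dlst: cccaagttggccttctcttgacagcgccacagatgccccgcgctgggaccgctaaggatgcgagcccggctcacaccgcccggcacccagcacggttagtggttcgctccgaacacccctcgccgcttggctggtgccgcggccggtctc
Fh1, Cs and Ogdh each held 2 CCAAT boxes, and Dlst held none. Mdh2, the fourth gene that varied with these, is not shown and held none. Of the 8 matched genes, 4 held a CCAAT box (Idh2 with 1 is the fourth). Of the 32851 RefSeq promoters, 33.8% held a CCAAT box on either strand within the 250 bases before the start. That share is per promoter, whereas the 4 of 8 is per gene, and Ogdh has 6 starts. The letters of NRF1, ETS, ERR and nuclear receptor sites and of the E-box were searched too. Sucla2 held an NRF1 core (3.74% of promoters), Sucla2 and Fh1 a nuclear receptor half-site (14.0%) and Ogdh an E-box (6.02%) at some later starts. These matches describe letters and are not shown to be bound. For Sucla2 the 150 bases before the RefSeq start lie at chr14:73552636-73552785. This is inside the span of the gene given above and not upstream of it.

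Genotype did not move any of the 9 genes past the threshold. With mice fed ad libitum, 0 of 9 passed (edgeR; 0 also at an unadjusted p under 0.05 and 0 with DESeq2), beside 0.00559% of all genes tested, which is 1 gene. All 9 log2 fold changes of Nt-/- against Nt+/+ lay between 0.01 and 0.09, and their 95% intervals between -0.17 and 0.30. With fasted mice, 0 of 9 passed as well, beside 0.00559% of all genes by edgeR. The number of genes called there depends on the test, with 98 by DESeq2 and 41 by edgeR's likelihood ratio test in place of 1, and 0 of the 9 passed by either. Of the 9, 8 were higher in fasted Nt-/- crypts, with a median of 0.13, beside 47.3% of all genes and a median of -0.01. Sucla2 alone had an unadjusted p under 0.05, at 134 ± 10.3 CPM in Nt-/- and 114 ± 6.83 CPM in Nt+/+ fasted mice (log2 fold change, 0.23; 95% interval, 0.08 to 0.38; adjusted p = 0.335, edgeR), and 1 Nt+/+ mouse at 103 CPM and 4 at 114 to 120 CPM all lay below the lowest Nt-/- mouse at 122 CPM. The Nt+/+ mouse at 120 CPM was the one with disagreeing labels. In this comparison 1634 of the 17875 genes tested had an unadjusted p under 0.05 (edgeR), and how many separated as fully was not counted. Of the 9, Idh2 alone was lower in Nt-/- crypts, at -0.09 (-0.28 to 0.10).

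The fasting effect did not differ detectably between the genotypes for any of the 9 genes (0 of 9 by edgeR, 0 at an unadjusted p under 0.05 and 0 with DESeq2, beside 0% of all genes by edgeR and 1 gene by DESeq2). The differences, Nt-/- minus Nt+/+, ran from -0.12 for Idh2 (95% interval, -0.40 to 0.15) to 0.15 for Sucla2 (-0.08 to 0.37), and that of Fh1 was 0.00 (-0.25 to 0.26). The comparison of 4 groups of 4 or 5 mice thus left differences of up to 0.40 in either direction within the intervals.

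Genes at the entries and exits of the cycle were among those that passed with fasting, beside 21.6% of all genes tested in Nt+/+ and 25.2% in Nt-/- crypts. Of 13 genes of the pyruvate dehydrogenase complex, its kinases and phosphatases and the pyruvate carrier, 3 rose and 4 fell in Nt+/+ crypts and 3 rose and 4 fell in Nt-/- crypts. Pdk4, the kinase that switches the complex off in the fasted state, was at 0.336 to 3.65 CPM in fed and 30.9 to 107 CPM in fasted Nt+/+ mice, and at 0.586 to 1.40 CPM in fed and 49.0 to 127 CPM in fasted Nt-/- mice (log2 fold change, 4.97 and 6.36). Pdk2 rose by 0.56 and 0.68, and the complex subunit Pdhb (-0.37 and -0.31) and the pyruvate carrier subunit Mpc2 (-0.34 and -0.25) fell on the log2 scale. Other parts of the same machinery did not pass in Nt+/+ crypts. These were the complex subunit Pdha1 (0.02), the kinase Pdk1 (0.11) and the other pyruvate carrier subunit Mpc1 (0.08). The first enzyme behind them, Cs, did not pass in either genotype.

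Of the 6 genes of cytosolic isozymes and citrate export, 2 rose and 1 fell in Nt+/+ and 3 rose and 1 fell in Nt-/- crypts. Of all genes tested, 21.6% and 25.2% passed. Aco1, the cytosolic aconitase, rose by 0.55 and 0.77 and Idh1, the cytosolic isocitrate dehydrogenase, by 0.61 and 0.84 on the log2 scale, whereas Acly, which splits exported citrate into acetyl-CoA, fell (-0.34 and -0.48). Slc25a1, the citrate carrier, rose in Nt-/- crypts (0.38). The cytosolic to mitochondrial malate dehydrogenase ratio, Mdh1 to Mdh2, was 0.709 ± 0.0425 and 0.722 ± 0.0542 in Nt+/+ and 0.712 ± 0.0291 and 0.745 ± 0.0467 in Nt-/- mice and did not pass.

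Of the 11 genes through which carbon enters by other routes, 3 rose and none fell in each genotype. Beside this, 21.6% of all genes tested passed in Nt+/+ and 25.2% in Nt-/- crypts, with 11.2% and 12.5% higher. The number of this list that passed in either direction is thus near the share of all genes. Glud1, the glutamate dehydrogenase that makes α-ketoglutarate, was at 290 to 319 CPM in fed and 400 to 592 CPM in fasted Nt+/+ mice and at 310 to 361 CPM and 621 to 875 CPM in Nt-/- mice, with no overlap between fed and fasted mice (log2 fold change, 0.71 and 1.04). In Nt+/+ crypts the malic enzyme Me3 (1.37) and the mitochondrial phosphoenolpyruvate carboxykinase Pck2 (0.41) rose as well, and in Nt-/- crypts the malic enzyme Me2 (0.46) and the aspartate aminotransferase Got2 (0.34) rose. In the other genotype they did not pass, with Me3 at 0.66 (adjusted p = 0.0600, edgeR) and Pck2 at 0.11 in Nt-/- and Me2 at 0.24 and Got2 at 0.20 in Nt+/+ crypts, and the difference between the genotypes passed for none of them. Of the 11 other mitochondrial cycle genes, 0 rose and 2 fell in Nt+/+ crypts (Mrps36 and Sdhd) and 0 rose and 1 fell in Nt-/- crypts (Mrps36), with a list median of -0.14 and -0.13.

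**Figure D4:**
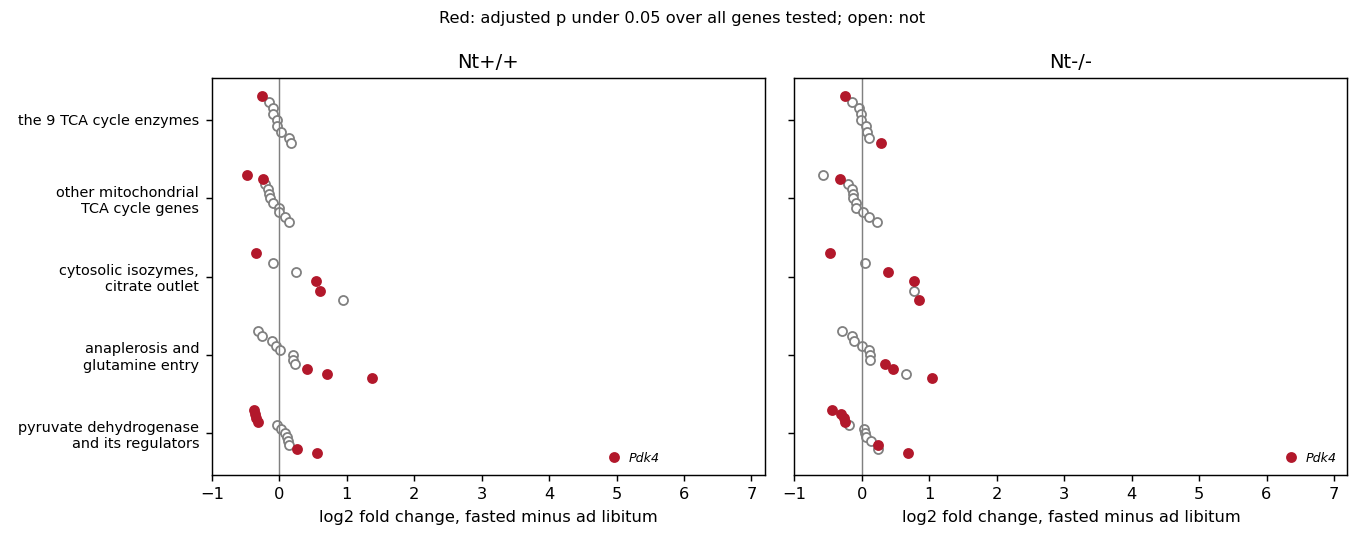
log2 fold change with fasting (x axis) of each gene of 5 lists (y axis) in Nt+/+ (left) and Nt-/- (right) crypts; red points passed at an adjusted p under 0.05. The 9 enzymes lie within -0.25 to 0.29, whereas Pdk4 reaches 4.97 and 6.36.

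Genes of other sets passed with fasting too. Of all genes tested, 21.6% passed in Nt+/+ and 25.2% in Nt-/- crypts, with 10.4% and 12.6% lower. Of 15 nuclear genes that mark the amount of mitochondria, 1 rose and 4 fell in Nt+/+ and 1 rose and 6 fell in Nt-/- crypts, with Tomm20, an import receptor, higher (0.57 and 0.55) and the chaperonin Hspd1 (-0.47 and -0.45), the channel Vdac3 (-0.36 and -0.35) and the import pore Tomm40 (-0.42 and -0.57) lower. Of the 13 transcripts of the mitochondrial genome, 5 fell in Nt+/+ and 3 in Nt-/- crypts, among them mt-Nd2 (-0.63 and -0.62) and mt-Nd3 (-0.53 and -0.39). The 3 of 13 in Nt-/- crypts is near the share of all genes that passed in either direction.

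Cell type markers also passed in part, beside 21.6% of all genes tested in Nt+/+ and 25.2% in Nt-/- crypts. Of 12 villus enterocyte markers, 9 rose in Nt+/+ and 12 in Nt-/- crypts, and their sum was 5530 to 12700 CPM in fed and 10900 to 27100 CPM in fasted mice. Of 10 dividing cell markers, 6 fell in Nt+/+ and 9 in Nt-/- crypts, and their sum was 1760 to 2080 CPM in fed and 1070 to 1610 CPM in fasted mice. Of 6 goblet cell markers, 2 fell in Nt+/+ and 4 in Nt-/- crypts, and Tff3 (0.13 and 0.03) and Fcgbp (0.17 and 0.16) did not pass. Of 6 stem cell markers, Olfm4 fell in Nt+/+ (-0.63) and Olfm4 (-0.92) and Smoc2 (-0.49) in Nt-/- crypts. The others did not pass, with Lgr5 at 0.29 and -0.02 and Ascl2 at 0.63 and 0.12, and 3 of the 6 were above 0 in Nt+/+ crypts (list median, -0.06). Further, 0 and 1 of 6 Paneth cell markers fell, 1 of 6 enteroendocrine markers rose and 1 of 8 leukocyte markers fell in each genotype. The part of these shifts in the values of the 9 enzymes was not tested.

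Between mice of the same group, the 9 transcripts did not vary as 1 set. After subtracting the group means from log2 CPM, the 36 pairs were compared over the 19 mice, and 11 pairs passed, all with positive correlations. Cs, Ogdh, Dlst and Mdh2 varied together, with Pearson's r of 0.79 to 0.89 and Spearman's rho of 0.78 to 0.90 in their 6 pairs (adjusted p, 0.0018 to 0.00206 for r and 0.00081 to 0.00617 for rho, permutation within groups, adjusted over the 36 pairs). Without the 2 mice farthest from the median, r was 0.75 to 0.88, and after also subtracting the mean of each file-name number it was 0.85 to 0.93. This second subtraction was chosen after the data were seen. The pair with the highest r among these was Ogdh and Dlst, 2 subunits of 1 complex (r = 0.89, rho = 0.90).

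Suclg1, Fh1 and Idh2 formed a second set, with r of 0.70 to 0.90 and rho of 0.72 to 0.86 (adjusted p, 0.00072 to 0.018 for r and 0.00081 to 0.016 for rho, permutation within groups). Without the 2 farthest mice r was 0.74 to 0.87. With the number of the file names subtracted, however, Suclg1 and Fh1 kept an r of 0.75, Idh2 and Suclg1 fell to 0.50 and Idh2 and Fh1 to 0.37. None of the 12 pairs across the 2 sets passed, with r from -0.36 for Idh2 and Dlst to 0.44 for Suclg1 and Mdh2 and 0.46 for Cs and Suclg1 (adjusted p = 0.128 for the last, permutation test). Sucla2 and Suclg1, subunits of 1 enzyme, had an r of 0.22 (rho = 0.09; adjusted p = 0.521, permutation test). The remaining pairs that passed were Idh3a with Suclg1 (r = 0.63) and Idh3a with Cs (r = 0.52, and 0.34 without the 2 farthest mice), and neither passed by rho (adjusted p = 0.0625 and 0.151, permutation test). The points share the library and its depth, and mice with the same number deviated together, so the p-values take the mice as more independent than they were.

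**Figure D5:**
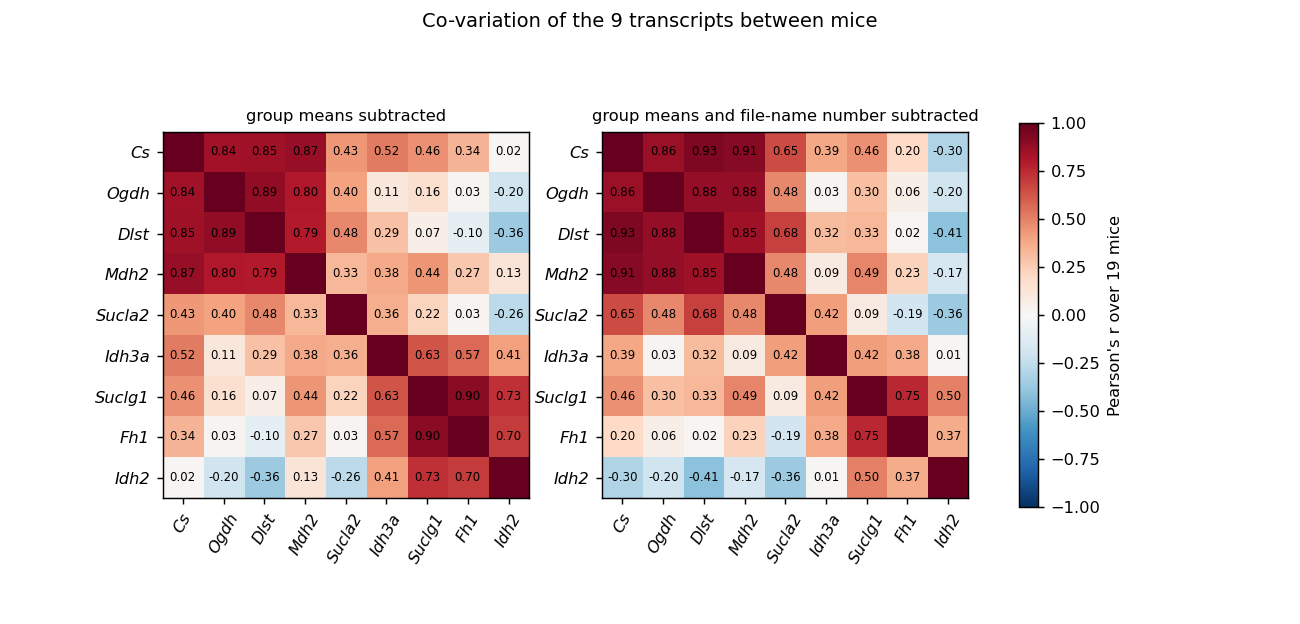
Pearson's r between each pair of the 9 enzymes over 19 mice, from log2 CPM with group means subtracted (left) and the means of the file-name numbers subtracted too (right), on a color scale from -1 to 1. Cs, Ogdh, Dlst and Mdh2 form a block of 0.79 to 0.89 on the left that stays at 0.85 to 0.93 on the right.

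Among the 5 genes most like the mean of the 9 enzymes, by Pearson's r between log2 CPM and their mean standardized level over the 19 mice, were Gapdh (0.89), Tpi1 (0.88), Uqcrh (0.88) and Tmem9b (0.86). With group means subtracted they were Rps6ka1 (0.91), Arpc4 (0.90), Sdhb (0.89), Tpi1 (0.88) and Tmem9b (0.88). Gapdh and Tpi1 are enzymes of glycolysis, and Uqcrh is a subunit of respiratory complex III. Within the 9, Cs (0.90) and Mdh2 (0.88) followed the mean over the 19 mice most closely and Idh2 least (0.18). Each of the 9 is part of that mean, which raises its r, so these values are not comparable with those of the other genes.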

How the data were processed

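RNA of crypts isolated from the small intestine of 19 mice was depleted of ribosomal RNA and sequenced with single-end reads. By the study's methods, crypts came from the proximal part of the small intestine, and the most distal part was left out. The authors trimmed the reads with Trimmomatic 0.39, mapped them to the GRCm38 transcripts of Ensembl with RSEM and deposited, for each mouse, expected counts, TPM and effective lengths per gene. FPKM were not used here. Multi-mapping reads are shared out by RSEM, so values of near-identical genes are estimates.

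Expected counts were rounded, genes with low counts were removed (filterByExpr), and 17875 genes were fitted with edgeR 4.0.16 (TMM scaling, quasi-likelihood test, 4 groups, no covariate, 15 residual degrees of freedom, R 4.3.3). P values were adjusted by Benjamini-Hochberg over all genes tested, and a gene passed under 0.05. CPM are TMM scaled. TPM, which the authors computed per length, served for levels between genes and for the 11 ratios, tested with two-sided exact permutation tests. Gene lists give the genes that passed, or the 4 with the smallest p in Nt+/+ crypts where more than 4 passed. Promoters came from RefSeq. The members and lists were chosen with earlier results of these data known, and the ratios after values were seen. The study's methods state that controls were littermates, but which mice share a litter is not given in the sources used here.

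Deviations from the group means of mice with the same number were compared. With the numbers of the titles, each same-number pair correlated above 0.1 for fasting in Nt+/+ crypts (mean r, 0.27; lowest, 0.165) and for genotype in fasted mice (0.271; 0.124), but not for fasting in Nt-/- crypts (lowest, -0.065) or genotype in fed mice (0.006). With the numbers in the file names, which differ from the titles in 2 mice, the lowest was 0.117 over all 4 comparisons. Alternatives were other scalings and filters, DESeq2 1.42.0, a likelihood ratio test, replicate blocks, sex as a covariate (1 mouse has no sex label and was left out), the relabelled mouse and leaving out each mouse. The fit was tested on simulated data. Results of 1 further gene of the lists are not reported here.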

Additional observations from a re-analysis of the deposited data

Results flagged for a closer look

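In the 36 sets of values formed by the 9 enzymes in the 4 groups, 2 held a mouse whose gap to its nearest neighbor was large for the range of its group by Dixon's test, where chance gives about 1 in 20. Both concern Nt-/- mouse 3 fed ad libitum. Cs was at 485 CPM in this mouse, with the next mouse at 608 CPM (gap over range, 0.834), and Dlst was at 241 CPM, with the next at 280 CPM (0.873). Ogdh (556 CPM) and Mdh2 (416 CPM), the other enzymes of the set that varied together, were also lowest in this mouse among the 4 of its group. Without this mouse the fasting effect in Nt-/- crypts was -0.12 for Cs, 0.04 for Dlst, 0.01 for Ogdh and -0.06 for Mdh2 (log2), and none of them passed.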

How the results depend on the processing

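Of 1386 values of the 9 enzymes recomputed under 12 alternatives and without each of 19 mice, 1312 kept their sign, and the 74 that turned were at most 0.07 in size (smallest adjusted p, 0.819). For fasting in Nt+/+ crypts, 1 gene passed, against 0 without a filter on low counts, with the mouse of disagreeing labels as Nt-/- or with only the compared groups fitted, 2 with a replicate block from the titles or from the file names (Idh2 added), and 0 to 1 without single mice. With these 2 blocks 5006 and 5484 of all 17875 genes passed, in place of 3862. For fasting in Nt-/- crypts 2 passed, against 1 with DESeq2's size factors in edgeR, without the filter, with the DESeq2 Wald test or with only the compared groups, and 1 to 2 without single mice. With library size alone 2 passed as well, but Idh3a took the place of Sucla2. The block changed no other call of the 9. No alternative gave a genotype or interaction call among them. Signs turned for Ogdh in Nt+/+ crypts (0.02 with the mouse relabelled), and in Nt-/- crypts for Idh2 (-0.00 with library size alone) and Mdh2 (0.01 with DESeq2's size factors and with DESeq2). Without single mice, Ogdh ran from -0.09 to 0.03, Dlst from -0.03 to 0.07 and Suclg1 from -0.08 to 0.00 in Nt+/+, and Idh2 from -0.01 to 0.12, Suclg1 from -0.07 to 0.01 and Mdh2 from -0.06 to 0.04 in Nt-/- crypts. The causes were not tested. Ratios were recomputed without each mouse, chosen after the data were seen: the Sucla2 plus Suclg2 to Suclg1 difference stayed at 0.179 to 0.231 and 0.252 to 0.325, and that of Idh2 to Idh3a in Nt+/+ at 0.158 to 0.183. In Nt-/- crypts the Idh2 to Idh3a difference of 0.0934 ran from 0.0536 (without fasted mouse 1) to 0.122 and did not pass (exact permutation test, p = 0.0571 to 0.321). With 4 or 5 mice a group, 95% intervals of the fasting effects reached 0.45 on the log2 scale.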
